A study of Oryza sativa with 16 samples.

Results

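Heat shock factors (Hsfs) are the transcription factors that switch on chaperone genes when proteins begin to unfold. They bind heat shock elements in promoters as trimers. Plants carry many of them: class A factors hold an activation motif, class B factors lack it and several act as repressors, and class C factors form a smaller group with a divergent oligomerization domain. Rice has a single HsfA1 gene, counterpart of the tomato and Arabidopsis factors that start the heat response. It also has a group of HsfA2 genes related to the Arabidopsis factor that prolongs that response. Its HsfA3 gene has an Arabidopsis counterpart that is switched on by DREB2A under heat. The 10 genes described here, chosen by locus number, are HsfA1, HsfA2a to HsfA2e, HsfA3 and the class B genes HsfB2a, HsfB2b and HsfB2c, out of 55801 genes in the count table. All 10 had at least 10 counts in total and were tested, together with 33698 genes in all.

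The panicles came from potted rice plants of 2 genotypes. DTY-IL is a drought-tolerant introgression line that carries segments of the donor N22 in a Swarna background, and Swarna is the drought-sensitive parent, so that DTY-IL stands for a single line and a difference from Swarna cannot be assigned to any one segment. The groups were DTY-IL under reproductive-stage drought stress (drought, 4 libraries), DTY-IL kept well watered (control, 4 libraries), Swarna under drought (4 libraries) and Swarna control (3 libraries). Soil moisture in the drought pots was held for 9 days at 75% of field capacity, then for 3 days at 50%, and both treatments were sampled on day 12. The submitters describe the replicates as independent biological ones. The remaining Swarna control library, which the study set aside as an outlier, was left out here as well and used only in an alternative.

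Levels are given in CPM, the counts of a gene relative to the TMM-adjusted total of its library, and serve to compare one gene between groups; they are not corrected for transcript length, so levels of different genes are not compared. A gene was called where drought and control, or DTY-IL and Swarna, differed by at least 2-fold and at an adjusted p of at most 0.05, taken from quasi-likelihood tests in edgeR and adjusted by Benjamini-Hochberg over all genes tested. Each log2 fold change is followed by its standard error (SE), and each mean by its SD.

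Total counts ranged from 24677520 to 31080042 in the 15 libraries. The label of the tissue was checked against marker genes: all 11 floral organ MADS-box genes were measured, and their summed level was 1302 to 1653 CPM in DTY-IL drought, 1712 to 2183 CPM in DTY-IL control, 1177 to 1490 CPM in Swarna drought and 1989 to 2217 CPM in Swarna control. The 8 tapetum markers summed to 17.4 to 58.3 CPM, 54.9 to 627.9 CPM, 13.3 to 59.8 CPM and 73.0 to 106.1 CPM in these groups. The 627.9 CPM came from DTY-IL control replicate 3 alone, beside 54.9 to 128.5 CPM in the rest of that group. Single tapetum markers went both ways with drought in Swarna, 5 with log2 fold changes above 0 and 3 below 0. In DTY-IL all 8 were below 0. The 3 pollen markers reached 6.47 to 15.6 CPM in DTY-IL drought, 22.7 to 58.9 CPM in DTY-IL control, 5.70 to 21.9 CPM in Swarna drought and 78.8 to 94.2 CPM in Swarna control. The 5 photosynthesis markers reached 790.6 to 6715 CPM, 8510 to 24120 CPM, 1335 to 2574 CPM and 13530 to 22040 CPM in the same order of groups. No marker was at the floor of 3 counts in every library of a group except 1 tapetum marker in Swarna control. Of the 11 floral organ genes, 10 had log2 fold changes of drought below 0 and 1 above 0 in each genotype. MADS14 was at 202.9 to 232.9 CPM in Swarna drought, above the 154.6 to 186.8 CPM of Swarna control. All 3 pollen and all 5 photosynthesis markers were below 0 in both genotypes. The floral organ, pollen and photosynthesis sums did not overlap between drought and control in either genotype. These sums thus moved with drought alongside every drought result below, and their part in those results was not tested. In bulk panicles, fewer cells of a type and less RNA per cell cannot be told apart.

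Under drought, 3 of the 10 Hsf genes passed the test in DTY-IL, HsfA3 upward and HsfA2d and HsfB2a downward. Of all genes tested, 7.46% were called higher and 12.3% lower in DTY-IL drought than in DTY-IL control. In Swarna, 5 of the 10 passed, with HsfA2c, HsfA2e, HsfA3 and HsfB2b upward and HsfA2d downward, while 11.9% of all genes were called higher and 17.6% lower in Swarna drought. HsfA3 and HsfA2d were the genes called in both genotypes, each in the same direction. The median log2 fold change of the 10 genes was −0.77 in DTY-IL and 0.75 in Swarna, beside medians over all genes tested of −0.03 and 0.00.

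**Figure D1:**
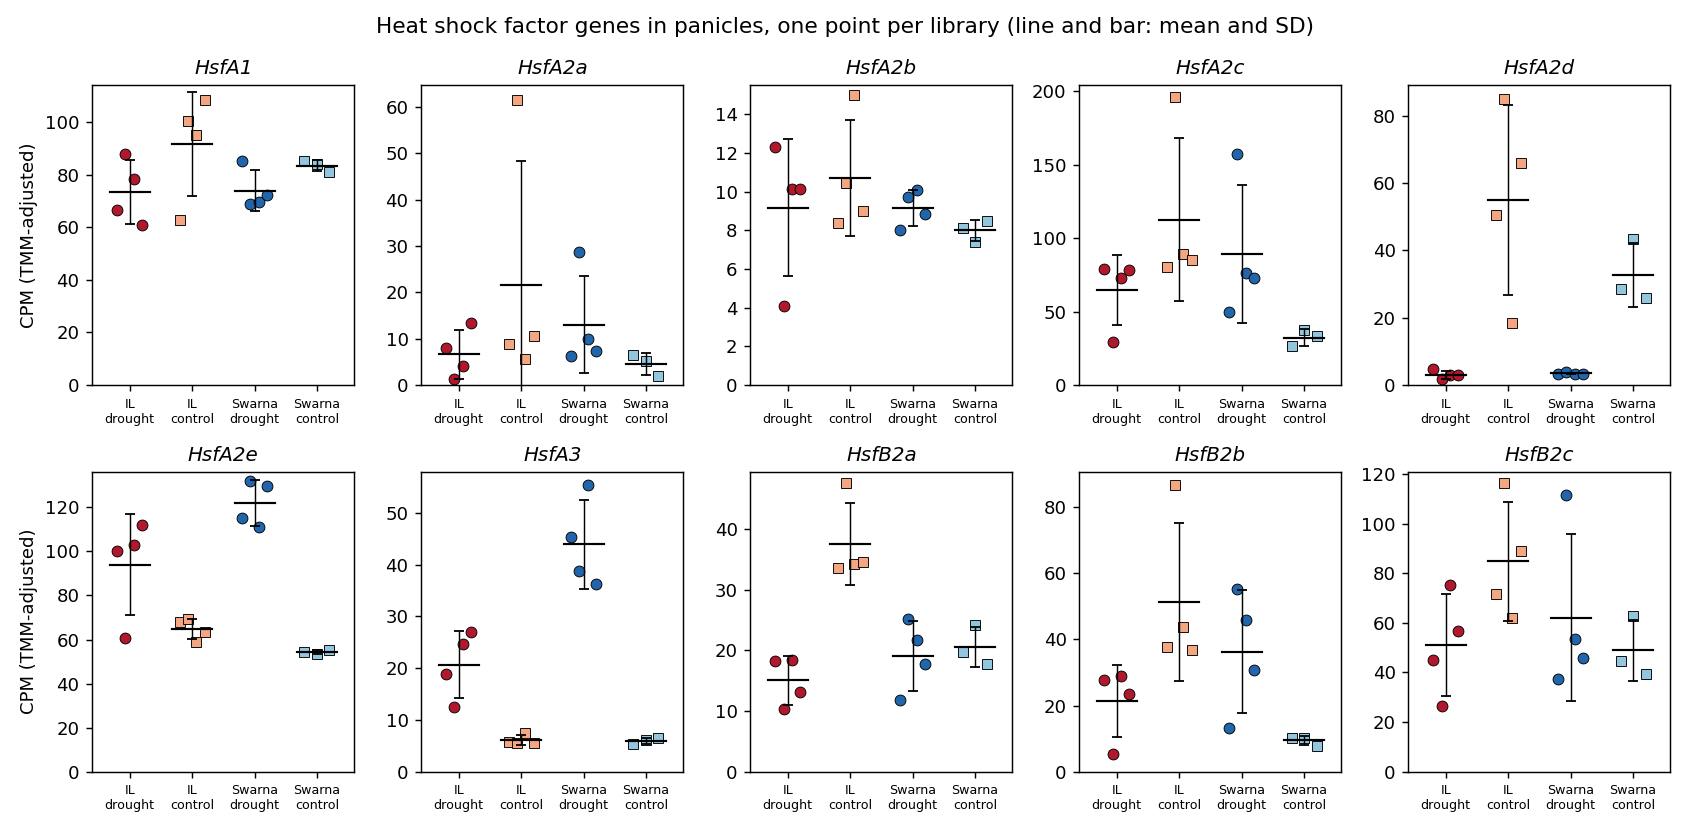
Levels of the 10 Hsf genes in CPM (TMM-adjusted, vertical axis from 0, a separate scale per gene), 1 point per library, for DTY-IL drought, DTY-IL control, Swarna drought and Swarna control; the line is the mean and the bar the SD, which is drawn only down to 0. HsfA2d lies between 1.73 and 4.64 CPM in every drought library and at 18.3 CPM or more in every control library, and HsfA3 shows the opposite order in both genotypes.

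HsfA1 (LOC_Os03g63750), whose tomato counterpart starts the heat response, had 66.4, 87.9, 78.4 and 60.9 CPM in DTY-IL drought, against 62.9, 100.3, 95.04 and 108.3 CPM in DTY-IL control. In Swarna it had 85.1, 68.8, 69.6 and 72.2 CPM under drought, against 85.3, 83.9 and 81.1 CPM in control. The ranges overlapped in both genotypes. The log2 fold change of drought was −0.32 (SE 0.16, adjusted p = 0.147) in DTY-IL and −0.17 (SE 0.18) in Swarna, and neither passed the test. The group means lay between 73.4 ± 12.1 CPM (SD, n = 4) in DTY-IL drought and 91.6 ± 19.9 CPM (SD, n = 4) in DTY-IL control, and no neighbours in that order differed beyond their spread.

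HsfA2d (LOC_Os03g06630) showed the largest drought change of the 10 genes, and it was downward. It had 4.64, 1.73, 2.98 and 3.05 CPM in DTY-IL drought, against 50.4, 85.0, 18.3 and 66.0 CPM in DTY-IL control. Swarna panicles had 3.38, 3.77, 3.25 and 3.42 CPM under drought, against 28.6, 43.4 and 25.9 CPM in control. Every drought library was below every control library in both genotypes. HsfA2d fell 17.73-fold in DTY-IL (log2 fold change −4.15, SE 0.42, adjusted p = 3.06e-05) and 9.44-fold in Swarna (log2 fold change −3.24, SE 0.42, adjusted p = 4.41e-05). Leaving out 1 library at a time gave log2 fold changes of −4.46 to −3.86 in DTY-IL and −3.47 to −2.98 in Swarna. The drought groups of the genotypes overlapped, at 3.10 ± 1.19 CPM in DTY-IL and 3.46 ± 0.22 CPM in Swarna (SD, n = 4 each), with a log2 difference of −0.16 (SE 0.38). The counts sum all transcripts of the locus, so splice forms of HsfA2d were not separated.

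HsfA2e (LOC_Os03g58160) moved the other way. It had 100.2, 60.6, 103.1 and 112.1 CPM in DTY-IL drought, against 68.0, 69.1, 58.9 and 63.3 CPM in DTY-IL control. Replicate 2 of DTY-IL drought lay inside the control range and the other libraries of that group above it. In Swarna the level was 115.0, 131.7, 111.2 and 129.7 CPM under drought, against 54.2, 53.5 and 55.4 CPM in control, with no overlap. HsfA2e rose 2.24-fold in Swarna (log2 fold change 1.16, SE 0.18, adjusted p = 0.000156). In DTY-IL it was 1.45-fold higher under drought (log2 fold change 0.54, SE 0.16, adjusted p = 0.0199), which is below the 2-fold limit and was not called.

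HsfA2c (LOC_Os10g28340) had drought estimates of opposite sign in the genotypes. It had 78.9, 29.3, 72.8 and 78.2 CPM in DTY-IL drought, against 80.3, 195.7, 89.1 and 85.0 CPM in DTY-IL control. In Swarna the values were 50.0, 157.2, 76.4 and 72.9 CPM under drought, against 26.2, 37.5 and 33.2 CPM in control. All drought libraries were below all control libraries in DTY-IL, and all were above them in Swarna. HsfA2c rose 2.76-fold in Swarna (log2 fold change 1.46, SE 0.44, adjusted p = 0.0144). The DTY-IL log2 fold change of −0.80 (SE 0.39, adjusted p = 0.129) did not pass the test, and it was −0.39 without DTY-IL control replicate 2. The Swarna call was lost without Swarna control replicate 1 (log2 fold change 1.33, adjusted p = 0.061) or replicate 4 (log2 fold change 1.39, adjusted p = 0.0504). In the interaction test given below, the difference between the genotypes did not pass in edgeR (adjusted p = 0.171) and was called by DESeq2 (adjusted p = 0.0115).

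HsfA2a (LOC_Os03g53340) varied most between replicates. Its levels were 8.03, 1.19, 4.09 and 13.4 CPM in DTY-IL drought, against 8.95, 61.4, 5.68 and 10.6 CPM in DTY-IL control. In Swarna they were 6.32, 28.6, 9.98 and 7.31 CPM under drought, against 6.51, 5.23 and 1.93 CPM in control. A single library stood far above the others in DTY-IL control and in Swarna drought. The log2 fold change of drought was −1.70 (SE 0.82, adjusted p = 0.124) in DTY-IL and 1.52 (SE 0.91, adjusted p = 0.192) in Swarna. Without DTY-IL control replicate 2 the DTY-IL value was −0.33, and without Swarna drought replicate 2 the Swarna value was 0.83. HsfA2b (LOC_Os07g08140) was steadier, at 12.3, 4.08, 10.1 and 10.1 CPM in DTY-IL drought, against 8.39, 10.47, 14.97 and 8.98 CPM in DTY-IL control. Swarna levels were 8.03, 9.73, 10.1 and 8.82 CPM under drought, against 8.12, 7.42 and 8.49 CPM in control. Its groups overlapped in both genotypes, and its log2 fold changes of −0.23 (SE 0.27) in DTY-IL and 0.19 (SE 0.29) in Swarna were not called.

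HsfA3 (LOC_Os02g32590) had the largest rise of the 10 genes. It had 18.8, 12.4, 24.7 and 26.9 CPM in DTY-IL drought, against 5.75, 5.53, 7.52 and 5.58 CPM in DTY-IL control. In Swarna it had 45.3, 38.8, 55.4 and 36.2 CPM under drought, against 5.38, 6.10 and 6.46 CPM in control. Every drought library was above every control library, and every Swarna drought library was above every DTY-IL drought library. HsfA3 rose 7.34-fold in Swarna (log2 fold change 2.88, SE 0.26, adjusted p = 3.72e-06) and 3.40-fold in DTY-IL (log2 fold change 1.76, SE 0.22, adjusted p = 0.000122). In order, the means were 43.9 ± 8.57 CPM in Swarna drought, 20.7 ± 6.50 CPM in DTY-IL drought (SD, n = 4 each), 6.09 ± 0.95 CPM in DTY-IL control (SD, n = 4) and 5.98 ± 0.55 CPM in Swarna control (SD, n = 3), and the control groups did not differ beyond their spread. With the library set aside as an outlier put back into the fit, HsfA3 missed the threshold in DTY-IL (log2 fold change 1.74, adjusted p = 0.0805) and in Swarna (log2 fold change 1.23, adjusted p = 0.147), and so did HsfA2e in Swarna (log2 fold change 0.65, adjusted p = 0.11).

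Among the class B genes, relatives of Arabidopsis repressors of the heat response, HsfB2a (LOC_Os04g48030) fell in DTY-IL. It had 18.3, 10.3, 18.4 and 13.2 CPM in DTY-IL drought, against 33.6, 47.6, 34.2 and 34.5 CPM in DTY-IL control, with no overlap. Swarna panicles had 11.8, 25.2, 21.6 and 17.8 CPM under drought, against 19.8, 24.2 and 17.73 CPM in control, and these overlapped. The fall in DTY-IL was 2.49-fold (log2 fold change −1.32, SE 0.24, adjusted p = 0.00133). In Swarna the log2 fold change was −0.11 (SE 0.25) and not called. The DTY-IL control level of HsfB2a, 37.5 ± 6.76 CPM (SD, n = 4), was the highest of its 4 group means, and the other groups lay between 15.1 and 20.6 CPM with overlapping libraries.

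HsfB2b (LOC_Os08g43334) had 27.9, 5.50, 28.8 and 23.5 CPM in DTY-IL drought, against 37.7, 86.7, 43.9 and 36.9 CPM in DTY-IL control. In Swarna it had 13.2, 55.4, 46.0 and 30.8 CPM under drought, against 10.3, 10.3 and 7.88 CPM in control. As with HsfA2c, all drought libraries were below control in DTY-IL and above control in Swarna. HsfB2b rose 3.83-fold in Swarna (log2 fold change 1.94, SE 0.55, adjusted p = 0.0108), a call that was lost without Swarna control replicate 4 (log2 fold change 1.72, adjusted p = 0.0504). In DTY-IL its log2 fold change was −1.26 (SE 0.48, adjusted p = 0.0582) and not called in the edgeR fit, while DESeq2 called it (log2 fold change −1.27, adjusted p = 0.0261). The edgeR value was −0.88 without DTY-IL control replicate 2 and passed without Swarna drought replicate 1 (log2 fold change −1.26, adjusted p = 0.0363), where the shared estimate of the spread changed. HsfB2c (LOC_Os09g35790) had 44.9, 26.5, 75.4 and 56.8 CPM in DTY-IL drought, against 71.8, 116.4, 61.9 and 89.0 CPM in DTY-IL control. Swarna levels were 37.5, 111.5, 53.4 and 46.0 CPM under drought, against 44.8, 62.8 and 39.2 CPM in control. Its groups overlapped in both genotypes, with log2 fold changes of −0.74 (SE 0.36, adjusted p = 0.125) in DTY-IL and 0.34 (SE 0.39) in Swarna.

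**Figure D2:**
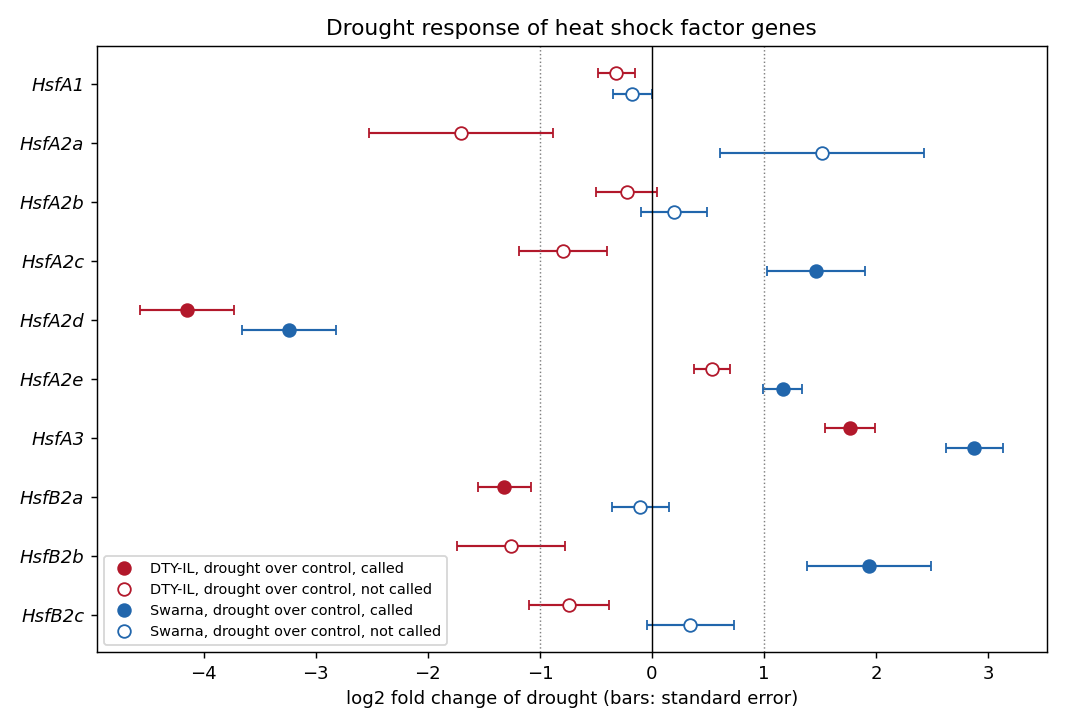
Log2 fold change of drought over control for each of the 10 Hsf genes (horizontal axis) in DTY-IL and in Swarna, with bars for the standard error; filled points were called and open points were not, and dotted lines mark a 2-fold change. The DTY-IL value lies to the left of the Swarna value for each of the 10 genes.

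Whether drought acted differently on a gene in DTY-IL and in Swarna was tested as an interaction in the same fit. None of the 10 genes passed at an adjusted p of at most 0.05 in edgeR's quasi-likelihood test, and 0.0594% of all genes did. At an unadjusted p under 0.05 the count was 6 of 10, beside 12.3% of all genes. The interaction of HsfB2b was −3.20 on the log2 scale (SE 0.73, adjusted p = 0.133), that of HsfA2c was −2.26 (SE 0.59, adjusted p = 0.171), that of HsfB2a was −1.21 (SE 0.35, adjusted p = 0.212) and that of HsfA3 was −1.11 (SE 0.32, adjusted p = 0.212). DESeq2 called these 4 genes, with adjusted p-values of 0.00213 for HsfB2b, 0.0115 for HsfA2c, 0.0401 for HsfB2a and 0.0452 for HsfA3, and called 795 genes in all against 20 by edgeR. HsfA2a (−3.22, SE 1.23) and HsfA2e (−0.63, SE 0.23) were the others with an unadjusted p under 0.05. All 10 interactions were below 0, with a median of −1.10, beside 52.0% of all genes below 0 and a median over all genes of −0.03. The 10 genes were measured in the same libraries and are not separate observations of that direction, which turned for HsfA1 (0.09), HsfA2d (1.25) and HsfA3 (0.51) when all 16 libraries were used.

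Between the genotypes under control conditions none of the 10 Hsf genes was called in the edgeR fit. Of all genes, 0.599% were called higher and 0.502% lower in DTY-IL. At an unadjusted p under 0.05 there were 4: HsfB2b (log2 fold change 2.43, SE 0.56, adjusted p = 0.0538), HsfA2c (1.80, SE 0.44, adjusted p = 0.0795), HsfB2a (0.87, SE 0.26, adjusted p = 0.177) and HsfA2a (2.25, SE 0.93, adjusted p = 0.389). At that unadjusted limit 3695 of the 33698 genes tested passed. For HsfB2b, HsfA2c, HsfB2a and HsfA2e every DTY-IL control library was above every Swarna control library. With 4 and 3 libraries such a separation can arise by chance, and its share over all genes was not counted. HsfB2b averaged 51.3 ± 23.8 CPM in DTY-IL control and 9.50 ± 1.40 CPM in Swarna control (SD, n = 4 and 3), and HsfA2c averaged 112.5 ± 55.6 CPM and 32.3 ± 5.69 CPM in the same groups. Both calls turn on the setting: DESeq2 called HsfB2b (adjusted p = 0.000383) and HsfA2c (adjusted p = 0.0026), and in the edgeR fit leaving out DTY-IL drought replicate 2 let both genes pass (adjusted p = 0.0109 for HsfB2b and 0.0466 for HsfA2c), as did leaving out Swarna drought replicate 2 (0.0497 and 0.0317), while leaving out replicate 1 of Swarna drought let HsfB2b pass (0.0285). HsfB2b, and not HsfA2c, also passed in edgeR with RLE factors (adjusted p = 0.0493), no filter (0.0476), all 16 libraries (0.024) and only the groups compared (0.0151). With filterByExpr neither passed. Without DTY-IL control replicate 2 the HsfB2b difference was 2.06 and the HsfA2c difference 1.39. The control values of these genes also enter the interaction and the drought effects, so those comparisons share libraries.

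Under drought HsfA3 was the gene called between the genotypes, at a 2.12-fold lower level in DTY-IL than in Swarna (log2 fold change −1.08, SE 0.22, adjusted p = 0.0106). Of all genes 2.09% were called higher and 1.26% lower in DTY-IL under drought. The call was lost without DTY-IL drought replicate 2 (log2 fold change −0.89, adjusted p = 0.0136, below 2-fold), without Swarna drought replicate 3 (−0.95, adjusted p = 0.0409, below 2-fold) and when the drought libraries were fitted alone (−1.08, adjusted p = 0.0546). It was also lost with all 16 libraries (−1.09, adjusted p = 0.519). HsfA2e, at 94.0 ± 22.8 CPM in DTY-IL drought and 121.9 ± 10.3 CPM in Swarna drought (SD, n = 4 each), gave −0.38 (SE 0.16, adjusted p = 0.186). The other 8 genes had log2 differences of −0.97 to −0.0025 with overlapping libraries. Of the 40 tested genes nearest to HsfA3 along its chromosome, 20 on each side, 2 were called between the genotypes under drought, against 8 of 40 around HsfA2c and 6 of 40 around HsfA2d, 2 genes that were not themselves called.

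Within groups, replicate 2 of DTY-IL drought was the lowest in 9 of the 10 Hsf genes, all but HsfA1, and in 28.0% of all genes tested. In DTY-IL control, replicate 2 was the highest in 7 of 10, namely HsfA2a, HsfA2c, HsfA2d, HsfA2e, HsfB2a, HsfB2b and HsfB2c, and in Swarna drought replicate 2 was the highest in the same 7 genes. Over all genes tested these libraries were the highest of their groups in 18.2% and 24.2%. Among the 15 other Hsf genes, DTY-IL drought replicate 2 was the lowest in 8 and the highest in 4, DTY-IL control replicate 2 was the highest in 1 and the lowest in 4, and Swarna drought replicate 2 was the highest in 6 and the lowest in 6. Of the 24 chaperone genes tested, 18 were lowest in replicate 2 of DTY-IL drought, 16 highest in replicate 2 of DTY-IL control and 23 highest in replicate 2 of Swarna drought. Replicate 2 of DTY-IL drought also had the lowest photosynthesis sum of all libraries (790.6 CPM, against 3117 to 6715 CPM in the rest of its group), and the lowest tapetum (17.4 CPM, against 39.8 to 58.3 CPM), floral organ (1302 CPM, against 1348 to 1653 CPM) and pollen sums of its group (6.47 CPM, against 6.68 to 15.6 CPM). Swarna drought replicate 2 had the lowest pollen sum of all libraries (5.70 CPM, against 14.5 to 21.9 CPM in the rest of its group) and the lowest photosynthesis sum of its group (1335 CPM, against 1695 to 2574 CPM). In DTY-IL control replicate 2 all 4 marker sums lay within the range of the rest of its group. The shared number does not pair these libraries, and the cause of the spread was not tested.

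**Figure D3:**
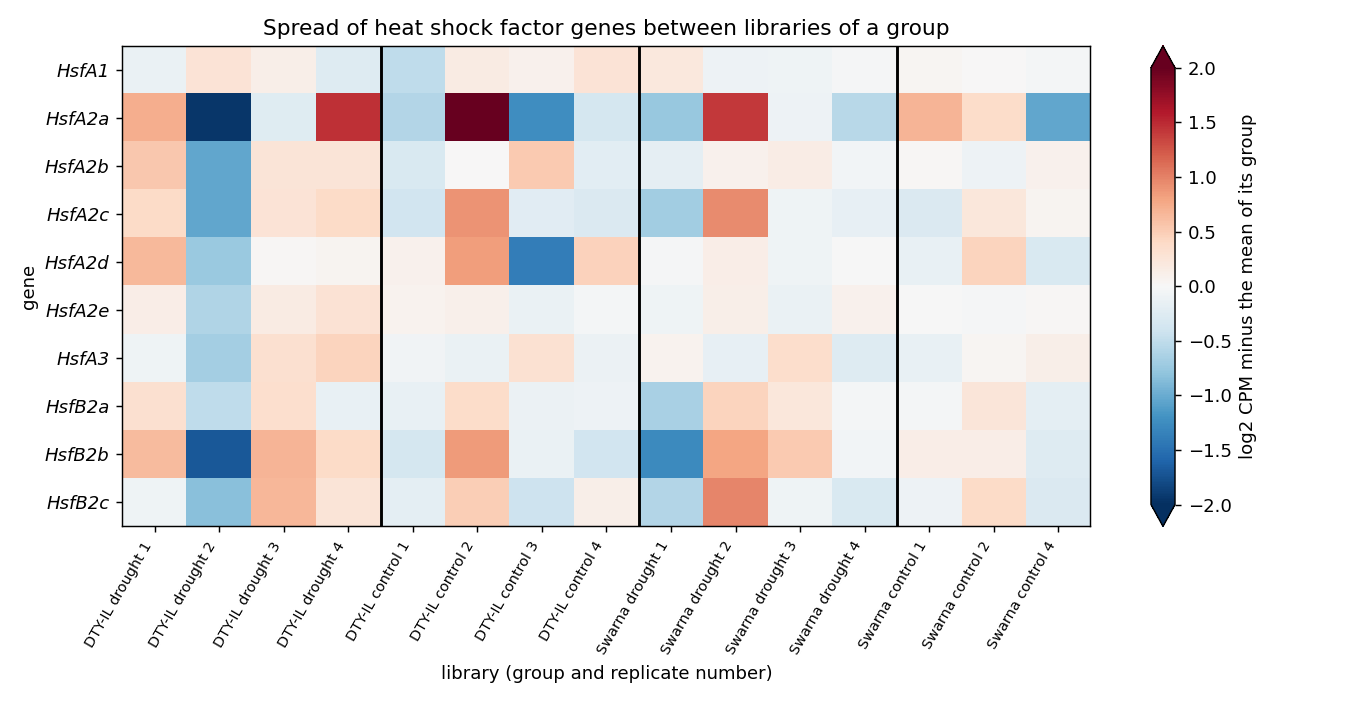
Log2 CPM of each Hsf gene (rows) in each library (columns) minus the mean of that library's group, from blue (below) to red (above); black lines part DTY-IL drought, DTY-IL control, Swarna drought and Swarna control, and the scale ends at 2. DTY-IL drought 2 is below its group mean in 9 of 10 rows, and DTY-IL control 2 and Swarna drought 2 are red in the HsfA2a, HsfA2c and class B rows.

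The 15 other Hsf genes of rice show how the rest of the family behaved. In DTY-IL 3 were called higher and 2 lower under drought, and in Swarna 6 higher and 3 lower, with median log2 fold changes of 0.50 and 0.76. Beside these stand 7.46% of all genes tested called higher and 12.3% lower in DTY-IL, and 11.9% and 17.6% in Swarna. The lower calls in DTY-IL rest on single libraries: none were left without DTY-IL control replicate 4 or DTY-IL drought replicate 3, and 1 was left when replicate 1, 2 or 3 of DTY-IL control was left out, or replicate 4 of DTY-IL drought, Swarna control replicate 4 or Swarna drought replicate 2. None were left with only the groups compared, and with all 16 libraries 0 were called lower in either genotype. HsfC1b (LOC_Os01g53220), a class C factor, had the largest rise: 58.2, 28.9, 53.6 and 88.2 CPM in DTY-IL drought, against 0.826, 0.458, 0.544 and 0.364 CPM in DTY-IL control. In Swarna HsfC1b had 152.9, 66.2, 132.7 and 97.6 CPM under drought, against 0.402, 0.555 and 0.178 CPM in control. It stayed under 1 CPM in every control library and was far above that in every drought library. Its log2 fold change was 6.68 (SE 0.45, adjusted p = 1.19e-06) in DTY-IL and 8.19 (SE 0.55, adjusted p = 6.43e-07) in Swarna. HsfB4c (LOC_Os09g28200), a class B gene, fell in Swarna (log2 fold change −2.46, SE 0.67, adjusted p = 0.00868). In DTY-IL it was called at a log2 fold change of −1.70 (SE 0.60, adjusted p = 0.0416), and that call was lost in 8 of the 15 fits that left out 1 library (adjusted p up to 0.107). With all 16 libraries neither passed (adjusted p = 0.181 in DTY-IL and 0.0933 in Swarna). The mean of HsfB4c was 0.56 CPM in DTY-IL drought, 1.84 CPM in DTY-IL control, 0.25 CPM in Swarna drought and 1.41 CPM in Swarna control. Its counts were 4 to 32 in DTY-IL drought, 38 to 74 in DTY-IL control, 2 to 16 in Swarna drought and 28 to 58 in Swarna control. The lowest drought libraries of HsfB4c were thus at or near the floor of 3 counts. The Hsf gene LOC_Os01g39020, named here after its values were seen, was the other family member called between the genotypes under drought (log2 fold change −2.04, SE 0.37, adjusted p = 0.006). It rose by a log2 fold change of 2.14 (SE 0.40) in DTY-IL and 4.52 (SE 0.48) in Swarna. None of the 15 passed the interaction test in edgeR, 5 had an unadjusted p under 0.05 and DESeq2 called 2. Of all genes tested, 12.3% had an unadjusted interaction p under 0.05 in edgeR, and DESeq2 called 795 of 33600. Between the genotypes under control edgeR called none of the 15, with 3 at an unadjusted p under 0.05, and DESeq2 called 1. Over all genes 3695 of 33698 had an unadjusted p under 0.05 in that edgeR comparison, and DESeq2 called 683 of 33600.

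Of 5 regulators and partners of Hsfs, DREB2A (LOC_Os01g07120), the activator of HsfA3 in Arabidopsis under heat, rose in both genotypes. It had 19.5, 27.5, 33.3 and 29.6 CPM in DTY-IL drought, against 11.6, 11.8, 14.5 and 11.6 CPM in DTY-IL control, and 33.5, 43.7, 44.0 and 32.8 CPM in Swarna drought, against 13.9, 13.3 and 12.6 CPM in Swarna control. The log2 fold change of DREB2A was 1.15 (SE 0.17, adjusted p = 0.000294) in DTY-IL and 1.54 (SE 0.18, adjusted p = 2.6e-05) in Swarna, with no overlap between drought and control. MBF1c (LOC_Os06g39240), whose Arabidopsis counterpart is a coactivator in thermotolerance, had 15.1, 1.19, 6.30 and 10.9 CPM in DTY-IL drought, against 72.7, 122.4, 64.1 and 68.7 CPM in DTY-IL control, and fell in the edgeR fit (log2 fold change −3.29, SE 0.79, adjusted p = 0.00679). DESeq2 gave no p for MBF1c, only a log2 fold change of −3.31. In Swarna MBF1c had 2.07, 35.1, 7.88 and 5.05 CPM under drought, against 28.3, 27.4 and 18.05 CPM in control, and was not called (log2 fold change −0.97, SE 0.78, adjusted p = 0.331), but passed without Swarna drought replicate 2 (log2 fold change −2.26, adjusted p = 0.0154). The libraries of MBF1c that stood out were again replicate 2 of DTY-IL drought, DTY-IL control and Swarna drought. DREB2B and the Hsf binding proteins HSBP1 and HSBP2, which restrain Hsf activity, did not reach a 2-fold change in either genotype in the edgeR fit. DREB2B averaged 84.9 CPM under drought and 64.7 CPM in control in DTY-IL, and 111.9 and 59.2 CPM in Swarna. HSBP1 averaged 45.4 and 66.6 CPM in DTY-IL, and 42.8 and 80.9 CPM in Swarna. Drought and control did not overlap for these genes in either genotype, while HSBP2 overlapped in both. With no filter 1 of the 5 genes was called lower in Swarna.

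Chaperone genes are the best known targets of Hsfs. Of 25 listed small HSP, HSP70, HSP90, HSP101 and FKBP65 genes 24 were tested. Under drought 5 were called higher and 6 lower in DTY-IL, against 6 higher and 1 lower in Swarna. The shares of all genes tested were 7.46% higher and 12.3% lower in DTY-IL, and 11.9% higher and 17.6% lower in Swarna. The median log2 fold change was −0.50 in DTY-IL and 0.12 in Swarna. The HSP70 gene LOC_Os03g16920 rose most in Swarna (log2 fold change 3.36, SE 0.49, adjusted p = 0.000116), beside 1.10 (SE 0.40, adjusted p = 0.0485) in DTY-IL, where the call was lost in 11 of the 15 fits that left out 1 library and the value was 0.47 without DTY-IL drought replicate 4. The DTY-IL call of LOC_Os03g16920 was also lost with RLE factors (adjusted p = 0.0511), no filter (0.0563), all 16 libraries (0.172) and only the groups compared (0.112). The HSP70 gene LOC_Os03g16860 fell by 1.93 on the log2 scale in DTY-IL (SE 0.47, adjusted p = 0.00708) and by 1.50 in Swarna (SE 0.49, adjusted p = 0.0217). The counts of lower calls rest on single libraries: with DTY-IL control replicate 2 left out 1 gene was called lower in DTY-IL, with replicate 3 of DTY-IL drought left out also 1, and with replicate 2 of that group left out 2. In Swarna 6 were called lower once drought replicate 2 was left out, and 0 once control replicate 1 or 2, or drought replicate 3 or 4, was left out. The higher calls numbered 3 to 6 in DTY-IL and 5 to 7 in Swarna when 1 library was left out; the lowest DTY-IL count, 3, came without DTY-IL drought replicate 4 or Swarna control replicate 4. None of the 24 passed the interaction test in the edgeR fit, 4 had an unadjusted p under 0.05 and DESeq2 called 2. Beside these stand 12.3% of all genes with an unadjusted p under 0.05 in edgeR, and 795 of 33600 called by DESeq2. DESeq2 called the interaction of LOC_Os03g16920 (−2.28, adjusted p = 0.0147). In edgeR it passed without DTY-IL drought replicate 4 (−2.89, adjusted p = 0.039). The genotypes differed under control in 2 chaperone genes, HSP70 LOC_Os11g47760 (log2 fold change 1.33, adjusted p = 0.00345) and HSP90 LOC_Os09g30412 (1.03, adjusted p = 0.0375), both higher in DTY-IL and named after their values were seen, beside 0.599% of all genes called higher. The call of LOC_Os09g30412 was lost in 10 of the 15 fits that left out 1 library. Among them was each fit without a DTY-IL control or a Swarna control library. The call was also lost with no filter, all 16 libraries and only the groups compared (adjusted p = 0.0509, 0.089 and 0.0625).

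**Figure D4:**
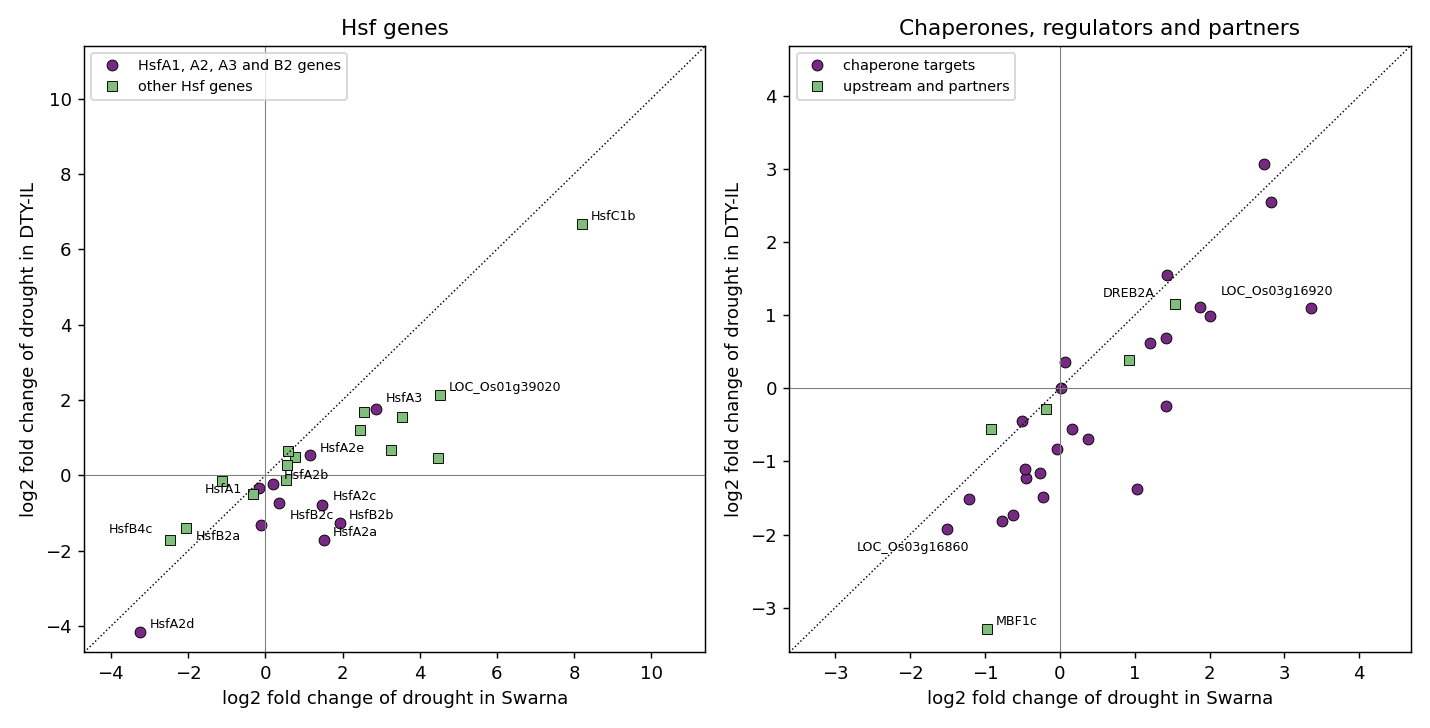
Log2 fold change of drought in Swarna (horizontal axis) and in DTY-IL (vertical axis), 1 point per gene, for the Hsf genes (left) and for chaperone genes and the regulators and partners of Hsfs (right); the dotted line marks equal changes. HsfA2a, HsfA2c, HsfB2b and HsfB2c lie at positive values in Swarna and negative values in DTY-IL, and HsfC1b lies far out in both.

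The genes whose profile over the 15 libraries was closest to a Hsf gene were looked up for HsfA3 and HsfA2d, the 2 with the smallest p in a joint test of the group differences. Among 20516 genes of at least 2 CPM on average, HsfA3 was most like LOC_Os01g19130 (Pearson r of log2 CPM 0.990) and LOC_Os01g46600 (0.989), and HsfA2d was most like LOC_Os09g37200 (0.962) and LOC_Os07g30950 (0.957). All these genes changed with drought across the same libraries, which gives high r between many genes, and the values are a description. LOC_Os01g19130 rose by a log2 fold change of 1.51 (SE 0.17) in DTY-IL and 2.35 (SE 0.20) in Swarna. LOC_Os09g37200 had log2 fold changes of −5.21 (SE 0.48) in DTY-IL and −4.97 (SE 0.48) in Swarna. The count table pairs no names with these loci.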

How the data were processed

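Panicle RNA of 16 libraries was sequenced by the authors. They trimmed reads with Trimmomatic, estimated transcript counts with Salmon 0.7.2 against RGAP 7 (Nipponbare) and summed them per gene; the expected counts deposited are whole numbers without normalization. Reads of N22 or Swarna alleles that differ from Nipponbare may be counted less well. The deposited DESeq2 tables hold the authors' own contrasts (mean counts, log2 fold changes, p-values) and were not used. Column numbers 1 to 4 do not match the pots in the labels, so columns were assigned to groups only, and replicate numbers are those of the columns.

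Genes with at least 10 counts over 15 libraries (33698 of 55801) were fitted in edgeR 4.0.16 (R 4.3.3): TMM, all 4 groups together, quasi-likelihood tests, Benjamini-Hochberg adjustment over all genes tested. SE was the log2 fold change divided by the root of F. The floor was 3 counts per library, and it covers counting error only. Alternatives were DESeq2 1.42.0, RLE factors, filterByExpr, no filter, fits of the compared groups alone, all 16 libraries and leaving out each library. Figures were drawn with matplotlib 3.10.9.

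The 10 genes and the lists (other Hsfs, regulators and partners, chaperones, markers) were chosen with earlier results of these data known. Named beside the 10 were, of each list, the genes with the largest and smallest log2 fold change of drought in Swarna among those called in at least 1 comparison, and for the 2 Hsf genes with the smallest joint p the 3 most similar genes by Pearson r among genes of at least 2 CPM on average, of which 2 are printed. Each of the 10 names matched 1 RefSeq record on the same chromosome. Per-length levels, protein and promoter sequences were not analysed here.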

Additional observations from a re-analysis of the deposited data

Results flagged for a closer look

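Dixon's test was run on each of the 10 genes in each of the 3 groups of 4 libraries. In 7 of these 30 sets 1 library stood apart; chance flags about 1 set in 20, but the genes share the same libraries, so the flags are not separate observations. DTY-IL control replicate 2 was high in HsfA2a (61.39 CPM, next 10.59), HsfA2c (195.7 CPM, next 89.05), HsfB2a (47.58 CPM, next 34.49) and HsfB2b (86.68 CPM, next 43.88). Swarna drought replicate 2 was high in HsfA2a (28.59 CPM, next 9.979), DTY-IL drought replicate 2 was low in HsfA2c (29.33 CPM, next 72.84), and DTY-IL control replicate 3 was high in HsfA3 (7.518 CPM, next 5.747).

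For HsfA2c and HsfB2b all drought libraries were below all control libraries in DTY-IL, and all were above them in Swarna. The rise was called in Swarna, and the DTY-IL differences were not called by edgeR. The drought effect in DTY-IL minus that in Swarna was −2.26 for HsfA2c (unadjusted p = 0.00168, adjusted p = 0.171) and −3.20 for HsfB2b (unadjusted p = 0.000607, adjusted p = 0.133) in edgeR's interaction test.

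Swarna control replicate 3, used only in the alternative with all 16 libraries, lay above the other Swarna control libraries in 7 of 10 genes when all 16 libraries were scaled together: HsfA2d (470 CPM, others up to 42.41), HsfA3 (54.39, up to 6.185), HsfA1 (139.7, up to 82.29), HsfA2e (138.8, up to 53.03), HsfB2c (88.85, up to 61.41), HsfA2c (49.17, up to 36.65) and HsfA2b (9.369, up to 8.132). HsfA2a lay below them (0.8803 CPM, others from 1.845). The share of all genes lying above was not counted. Before scaling, HsfA1 (2221 counts, others 2272 to 2421) and HsfA2b (149, others 214 to 238) lay below the others. HsfA2c (782, others 717 to 1082) and HsfB2c (1413, others 1099 to 1813) lay within them. The place of these genes thus depends on how this library, with 29034763 counts in total, was scaled.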

How the results depend on the processing

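Leaving out 1 library at a time gave 3 to 4 called Hsf genes for drought in DTY-IL, 3 to 5 for drought in Swarna, 0 to 2 between genotypes under control, 0 to 1 under drought and 0 in the interaction. With all 16 libraries the drought count was 2 in DTY-IL (HsfA3 was lost) and 3 in Swarna, with 1 under control and 0 between genotypes under drought. Under control the count was 1, HsfB2b, with RLE factors, with no filter and with only the groups compared, and 2 with DESeq2. Fitting only the drought groups left 0 called, and DESeq2 called 4 genes for drought in DTY-IL and 4 interactions. Over all genes, all 16 libraries gave 2878 calls for drought in DTY-IL against 6660 (52.8% upward against 37.8%), 436 against 1131 between genotypes under drought and 0 against 20 interactions; fitting only the groups compared gave 657 under drought, and DESeq2 gave 683 against 371 under control and 1951 under drought.

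The signs that turned were of differences not called in the edgeR fit; DESeq2 called the interaction of HsfA3 (−1.13, adjusted p = 0.0452), 1 of those that turned with all 16 libraries. With all 16 libraries the control difference was −0.10 for HsfA1, −1.41 for HsfA2d, −0.24 for HsfA2e and −1.60 for HsfA3, and the interaction 0.092 for HsfA1, 1.25 for HsfA2d and 0.51 for HsfA3. The control difference of HsfA3 was −0.0070 with no filter and −0.0062 with only the groups compared. The difference under drought was 0.0013 with filterByExpr and 0.0094 with no filter for HsfA1, and 0.0022 and 0.016 for HsfA2b. Leaving out 1 library gave −0.30 to 0.069 for HsfB2a and −0.057 to 0.56 for HsfB2c for drought in Swarna, −0.089 to 0.078 for HsfA3 under control, and, between genotypes under drought, −0.096 to 0.069 for HsfA1, −0.16 to 0.26 for HsfA2b, −0.41 to 0.057 for HsfA2d and −0.54 to 0.17 for HsfB2c. The cause was not tested. No paired analysis was possible because the count columns carry no pot numbers.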
